A study of Mus musculus with 30 samples.

Results

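The genes described here encode potassium channels: pore-forming and accessory subunits whose symbols begin with Kcn, and the sulfonylurea receptors Abcc8 and Abcc9. They were taken by symbol from the table of read counts per gene, with no use of the measured values, and made up 96 of its 39017 rows. The rows carried 95 symbols, because Kcnb2 stood in the table under 2 gene IDs. Of the 96 rows, 55 passed the low-count filter and were tested, and 41 did not, including 3 with no read in any library.

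The study asked how activin B, a TGF-β family protein, acts on cells of an insulin-making tumour that bear ALK7 (gene Acvr1c), one of its type I receptors. The cells were βTC3, a mouse insulinoma line, of which 5 derivatives carried doxycycline (DOX)-inducible constructs. The lines labelled ALK7 and ALK7-DN carried wild-type ALK7 and a dominant-negative form of it, in plasmid PB-33. The lines labelled sh2 and sh1/2 carried 1 hairpin and a pair of hairpins against ALK7, in plasmid PB-31. The control line carried PB-33 and no hairpin-free PB-31 line was analysed here, so plasmid and hairpin cannot be told apart. Every culture received 1 µg/ml DOX for 24 hours, either with 50 ng/ml activin B for 24 hours or alone. Each of the 10 groups had 3 libraries, numbered 1 to 3, from wells plated in triplicate, so p-values measure only the spread between these wells. The labels gave batch 2 for 2 groups, ALK7-DN with activin B and sh2 with DOX alone, and batch 1 for all others. In those 2 lines batch and activin B cannot be told apart.

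Potassium channels let potassium leave the cell and hold the membrane near its resting voltage. In beta cells the ATP-sensitive (KATP) channel, 4 pores of Kir6.2 (Kcnj11) with 4 sulfonylurea receptors SUR1 (Abcc8), closes when glucose metabolism raises ATP, and the membrane then depolarises, calcium enters and insulin is released. Voltage-gated channels and calcium-activated channels end each action potential, and tandem-pore-domain (K2P) channels carry a background current.

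The libraries held between 18904884 and 34740789 counts, and levels are given as CPM, the count as a share of the TMM-scaled library size. Acvr1c averaged 42.7 CPM in sh2 and 26.7 CPM in sh1/2 cells with activin B, against 101 CPM in control cells. With DOX alone it averaged 68.5 CPM in sh2 and 55.3 CPM in sh1/2 cells, against 165 CPM in control cells. In the lines labelled ALK7 and ALK7-DN it averaged 80.6 and 107 CPM with activin B, against 101 CPM in control cells. With DOX alone it averaged 154 and 161 CPM there, against 165 CPM in control cells, so that the mean was above that of control cells in ALK7-DN cells with activin B alone, by less than the SD of 8.38 CPM. Whether the construct transcripts would be counted at the mouse gene is not given in the sources used here, and both lines are called by their labels below. Of 12 beta cell markers 11 were tested, with a summed level of 11880 to 17900 CPM with activin B and 12550 to 22910 CPM with DOX alone. The 4 alpha cell markers summed to 141 to 427 CPM with activin B and 208 to 567 CPM with DOX alone. The 4 neuron and glia markers summed to 27.1 to 43.8 CPM with activin B and 25.0 to 39.7 CPM with DOX alone, and each list of delta, PP, exocrine and duct, stromal, endothelial and immune cells to at most 5.18 CPM in any library. The part of other cell types in the results was not tested. Library deviations from the group mean followed the GC content of the genes to different degrees, with Spearman correlations across genes from -0.674 to 0.696. Among the most negative were control activin B replicate 2 (-0.674), sh1/2 DOX replicate 3 (-0.585) and sh1/2 DOX replicate 1 (-0.477), which had been seen to stand apart. ALK7-DN activin B replicate 3 (-0.518) and ALK7 activin B replicate 3 (-0.475) lay in the same range, and sh1/2 DOX replicate 2 had the most positive value. Results that rest on the 3 libraries of control and sh1/2 cells are given with and without them. Each value is relative to the mean of the group's own 3 libraries, so it cannot show which library is off. Leaving out the 3 libraries keeps sh1/2 DOX replicate 2 (0.696) as the only DOX library of that line.

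Highest per length were a background channel, an ERG-type channel and the beta cell sulfonylurea receptor. Kcnk16, which encodes the K2P channel TALK-1 of islet cells, averaged 59.5 CPM per kilobase of exon over the 30 libraries, Kcnh6 (the ERG-type channel Kv11.2) 52.0 and Abcc8 48.7 CPM per kilobase. Also high among the genes named here were the Kv4-binding protein Kcnip3 (15.9), the Kv β subunit Kcnab2 (8.74), the Kv4 pore Kcnd1 (8.47) and the ERG1 pore Kcnh2 (6.62). None of the 8 Kcna rows (Kv1 pores), the 5 Kcne rows (single-span accessory subunits) or the 2 Kcnv rows (silent Kv subunits) passed the low-count filter. Kcnj8, the Kir6.1 pore that pairs with SUR2, and Kcnn4, the intermediate-conductance calcium-activated channel, did not pass either. Rows that failed the filter averaged at most 0.151 CPM, and the lowest row that passed averaged 0.254 CPM. A row could pass through 1 group of 3 libraries, so the tested rows are not a sample of all potassium channel genes. The cultures were measured in bulk, so fewer cells with a transcript and less transcript per cell cannot be told apart.

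With activin B, rows were called in both directions in every line. The edgeR quasi-likelihood test called a row where its Benjamini-Hochberg adjusted p over all 15627 genes tested was under 0.05. In control cells it called 29 of 55 rows (52.73%), where 20.3% of all genes tested were called. Of these 14 were higher and 15 lower, where 10.7% and 9.66% of all genes were. In ALK7 cells 24 rows (43.64%) were called (25.3% of all genes), 14 higher and 10 lower, where 13% and 12.3% of all genes were. In ALK7-DN cells 25 rows (45.45%) were called (16.1% of all genes), 12 higher and 13 lower, where 8.48% and 7.62% of all genes were. In sh2 cells 23 rows (41.82%) were called (19.6% of all genes), 12 higher and 11 lower, where 10.7% and 8.91% of all genes were. In sh1/2 cells 24 rows (43.64%) were called (36.6% of all genes), 16 higher and 8 lower, where 17.5% and 19.1% of all genes were. The share of rows called in sh1/2 cells thus lay nearest to that of all genes, and the share called lower there was under it. With the GC correction the split in sh1/2 cells was 13 higher and 11 lower. That correction also called lower Kcnh3 in control (-0.52) and ALK7-DN cells (-0.49), Kcnh1 in ALK7 (-0.34) and Kcnt1 in sh1/2 cells (-0.32), with adjusted p from 0.0106 to 0.0346. The median log2 fold change of the 55 rows lay between -0.01 in control and 0.17 in ALK7 cells, and that of all genes between -0.01 and 0.00 in the 5 lines. With only the 6 libraries of a line in the fit, 18 rows were called in control cells and 13 in sh1/2 cells. The share of all genes called is given here for the edgeR fit of all libraries alone, not for the GC correction or other alternatives. A changed count or split under those alternatives cannot be read as particular to the potassium channel rows. Without the 3 libraries that stand apart in GC content, which leaves 1 DOX library in sh1/2 cells and assumes that it varies like the other groups, 13 rows were called in that line. Among those lost were the calls of Kcnmb1, Kcnmb2, Kcnh2, Kcnh6, Kcnn1, Kcnk16, Kcnma1, Kcnj4 and Kcnj6, with adjusted p from 0.0525 to 0.935. In ALK7-DN cells a batch term can be had only by assuming that both hairpin lines respond alike. With it the calls of Kcnk2, Kcnc2, Kcnc4, Kcng3, Kcnmb4 and Kcnh1 ended (adjusted p 0.0712 to 0.33), and Kcnj11 passed (-1.62, adjusted p = 0.012). That assumption was not tested, and across genes the response correlated with GC content at -0.09 in sh2 and 0.43 in sh1/2 cells. Any difference between the hairpin lines enters this fit as batch, so the lost and gained calls do not show an effect of batch.

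**Figure D1:**
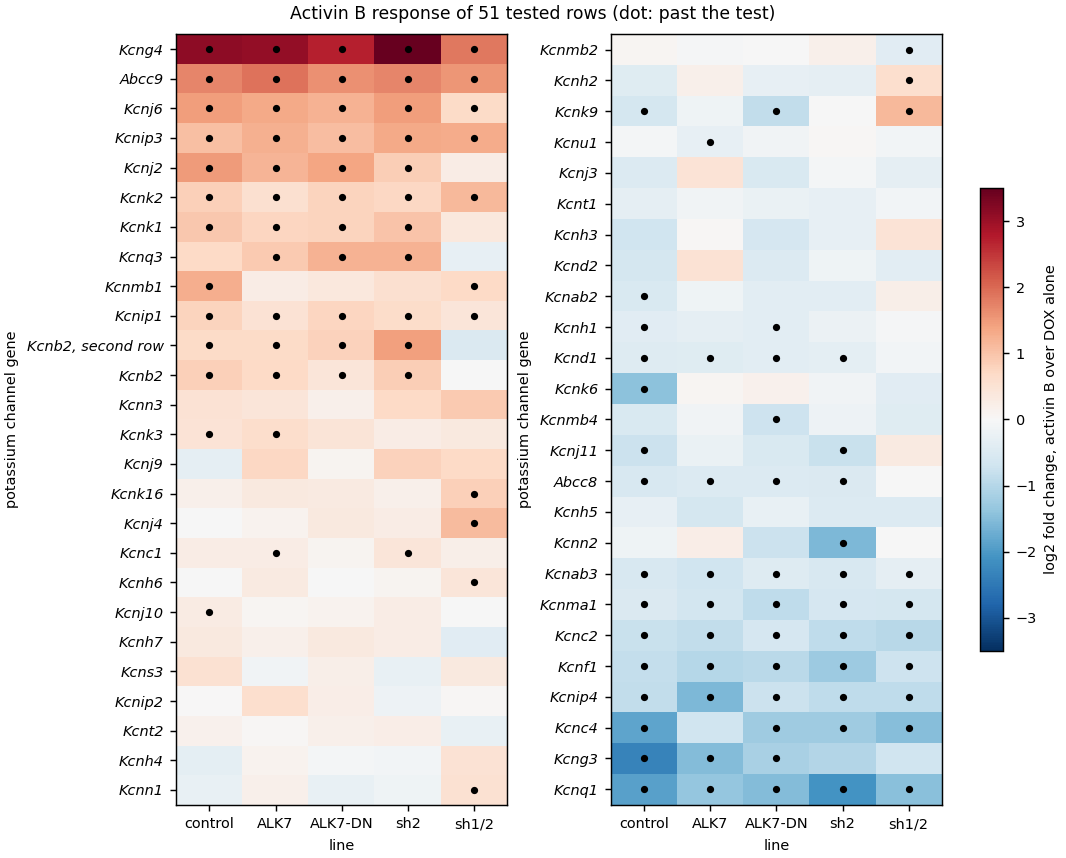
Log2 fold change of activin B with DOX over DOX alone (colour, red higher and blue lower) for 51 of the 55 tested rows in the 5 lines, ordered by their mean change. A dot marks a row past the edgeR test, and the upper rows run from Kcng4, at 3.14 in control cells, and the lower ones end with Kcnq1, at -1.90 in control cells.

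A set of 12 genes was called in the same direction in all 5 lines. Kcng4, Abcc9, Kcnj6, Kcnip3, Kcnk2 and Kcnip1 were higher with activin B, which is 10.91% of the 55 rows, where 4.33% of all genes tested were higher in all 5 lines. Kcnq1, Kcnip4, Kcnf1, Kcnc2, Kcnma1 and Kcnab3 were lower, again 10.91% of the rows, where 3.54% of all genes were lower in all 5 lines. A further 5 rows were higher in 4 lines (Kcnk1, Kcnj2 and both Kcnb2 rows among them) and Kcnq3 in 3, while Abcc8, Kcnd1 and Kcnc4 were lower in 4 lines and Kcng3 in 3. Kcnk9 was called in both directions. The 13 rows called in no line included Kcnt1, Kcnt2, Kcnh3, Kcnh4, Kcnh5, Kcnh7, Kcnip2, Kcnj3, Kcnj9, Kcnd2, Kcns3 and Kcnn3. The kit kept strand, but the strand setting of the counting is not given in the sources used here. Reads of an antisense partner with shared exon bases therefore cannot be told apart from those of Kcnip4, Kcnab3, Kcnq1, Kcnma1, Abcc9, Kcnj6, Kcnk1, Kcnk2, Kcnk3, Kcnh3, Kcnh7, Kcnj3, Kcnj9, Kcnn1, Kcnn2, Kcnt2 or Kcnmb4.

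Among the KATP subunits, the transcript of the beta cell receptor SUR1 was lower and that of its muscle-type relative SUR2 was higher with activin B, at levels that remained far apart. Abcc8 (mm10 chromosome 7, 46104523 to 46180033, minus strand) encodes SUR1, the target of sulfonylurea drugs. Abcc8 in control cells had 372, 275 and 347 CPM with activin B, against 526, 441 and 498 CPM with DOX alone. Abcc8 in ALK7 cells had 344, 299.7 and 286 CPM with activin B, against 452, 432 and 415 CPM with DOX alone. Abcc8 in ALK7-DN cells had 372, 315 and 315 CPM with activin B, against 512, 443 and 452 CPM with DOX alone. In each of these lines every library with activin B lay below every library with DOX alone. Abcc8 in sh2 cells had 352, 312 and 335 CPM with activin B, against 474, 471 and 464 CPM with DOX alone, again without overlap. Abcc8 in sh1/2 cells had 362, 387 and 407 CPM with activin B, against 346, 456 and 359.7 CPM with DOX alone, and there the groups overlapped. The log2 fold change was -0.56 ± 0.11 SE (adjusted p = 0.000321) in control and -0.48 ± 0.11 (adjusted p = 0.00115) in ALK7 cells. For Abcc8 it was -0.49 ± 0.11 (adjusted p = 0.00155) in ALK7-DN and -0.49 ± 0.11 (adjusted p = 0.0012) in sh2 cells. In sh1/2 cells it was -0.01 ± 0.11 (adjusted p = 0.96), and with counts corrected for GC content it was -0.35 (adjusted p = 6.69e-06), past the test in the same direction as in the other lines.

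Kcnj11 (chromosome 7, 46093953 to 46100764, minus strand), the gene next to Abcc8, encodes the pore Kir6.2. Kcnj11 in control cells had 19.4, 9.04 and 17.1 CPM with activin B, against 30.2, 21.7 and 25.8 CPM with DOX alone, with no overlap. Kcnj11 in sh2 cells had 17.1, 13.7 and 17.9 CPM with activin B, against 27.9, 28.2 and 26.9 CPM with DOX alone, also without overlap. It passed the test in these lines, at -0.76 ± 0.26 (adjusted p = 0.04) and -0.77 ± 0.26 (adjusted p = 0.0367). The control call ended without DOX replicate 1 or 3, or activin B replicate 2 or 3 (adjusted p 0.0562 to 0.22). The sh2 call ended without DOX replicate 1, 2 or 3, or activin B replicate 1, 2 or 3 (adjusted p 0.0608 to 0.143). In the other lines the change was -0.23 ± 0.26 (adjusted p = 0.59) in ALK7, -0.54 ± 0.26 (adjusted p = 0.179) in ALK7-DN and 0.31 ± 0.26 (adjusted p = 0.365) in sh1/2 cells. In ALK7-DN cells a fit with the replicate number as a block called it lower (-0.57, adjusted p = 0.0381), as did the GC correction (-0.48, adjusted p = 0.0344).

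Abcc9 (chromosome 6, 142587862 to 142702315, minus strand) encodes SUR2, which serves KATP channels of heart, skeletal and smooth muscle. Abcc9 in control cells had 1.10, 1.24 and 1.45 CPM with activin B, against 0.385, 0.383 and 0.380 CPM with DOX alone. Abcc9 in ALK7 cells had 1.62, 1.86 and 1.60 CPM with activin B, against 0.395, 0.420 and 0.550 CPM with DOX alone. Abcc9 in ALK7-DN cells had 1.41, 1.44 and 1.66 CPM with activin B, against 0.371, 0.590 and 0.525 CPM with DOX alone. The libraries with activin B were all above those with DOX alone in the 3 lines. Abcc9 in sh2 cells had 0.606, 0.882 and 0.732 CPM with activin B, against 0.151, 0.256 and 0.270 CPM with DOX alone. Abcc9 in sh1/2 cells had 0.812, 1.03 and 1.21 CPM with activin B, against 0.398, 0.436 and 0.160 CPM with DOX alone, with the same separation. With activin B over DOX alone, the log2 fold change was 1.71 ± 0.24 SE (adjusted p = 8.08e-06) in control, 1.89 ± 0.23 (adjusted p = 5.36e-07) in ALK7 and 1.60 ± 0.23 (adjusted p = 7.71e-06) in ALK7-DN cells. For Abcc9 in the hairpin lines it was 1.71 ± 0.28 (adjusted p = 5.47e-05) in sh2 and 1.53 ± 0.25 (adjusted p = 4.71e-05) in sh1/2 cells. Per kilobase of exon Abcc9 averaged 0.0969 CPM over all libraries and Abcc8 48.7 CPM, so SUR2 transcripts stayed a small part of the sulfonylurea receptor transcripts. These calls of Abcc8 and Abcc9 held with each library left out in turn.

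**Figure D2:**
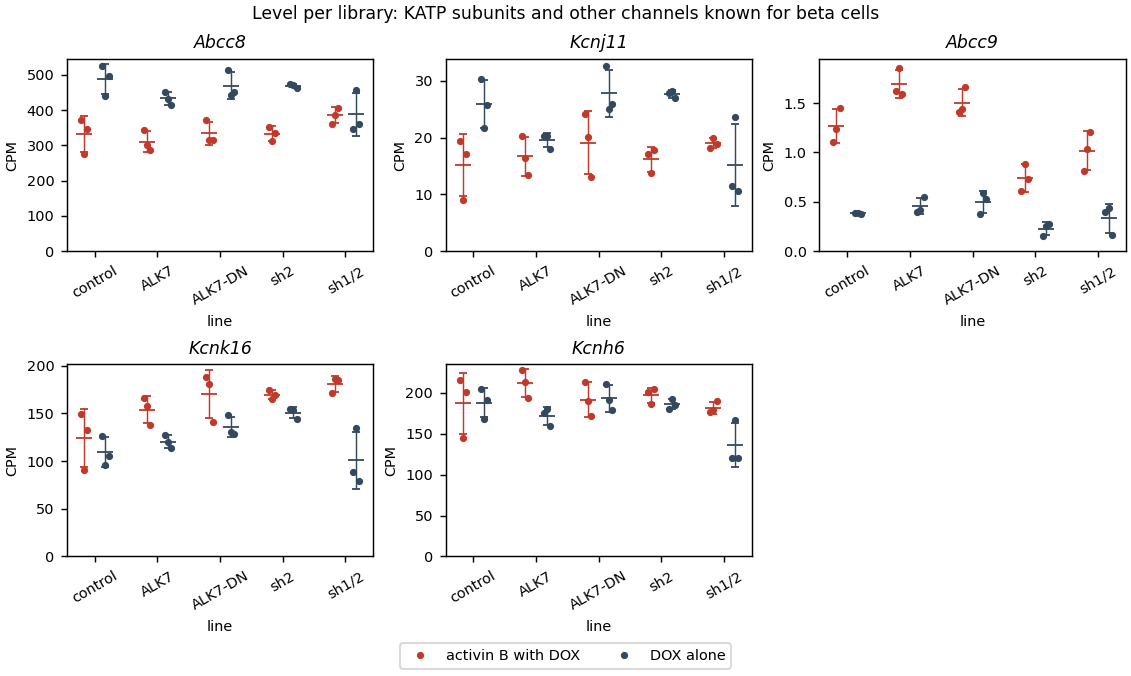
CPM per library (points), mean and SD (lines, n = 3 libraries) of 3 KATP subunits and of Kcnk16 and Kcnh6 in the 5 lines, with activin B at the left of each pair and DOX alone at the right. Abcc8 averaged 331 CPM with activin B and 488 CPM with DOX alone in control cells, and Abcc9 1.27 CPM with activin B and 0.383 CPM with DOX alone.

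In the voltage-gated Kv2 group the largest changes were those of silent subunits, which form no channel alone and change the gating of Kv2 pores. The gene with the largest activin B response of all potassium channel rows in control cells was Kcng4 (chromosome 8, 119623854 to 119635680, minus strand), which encodes the silent subunit Kv6.4. Kcnf1 (chromosome 12, 17172100 to 17176888, minus strand), which encodes the silent subunit Kv5.1, went the other way in all 5 lines. Their upstream regions are shown because these silent subunits of 1 pore family responded in opposite directions. Each is the 250 bases before the RefSeq start site on GRCm38.p6, written 5′ to 3′ on the strand of the gene, with a match to the SMAD-type motif CAGACA, on either strand, in capitals.
Kcng4, chr8:119635681-119635930, minus strand: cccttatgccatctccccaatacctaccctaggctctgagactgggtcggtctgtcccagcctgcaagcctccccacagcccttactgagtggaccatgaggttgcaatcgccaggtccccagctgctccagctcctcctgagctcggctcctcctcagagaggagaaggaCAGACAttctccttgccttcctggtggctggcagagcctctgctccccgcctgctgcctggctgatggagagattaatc
Kcnf1, chr12:17176889-17177138, minus strand: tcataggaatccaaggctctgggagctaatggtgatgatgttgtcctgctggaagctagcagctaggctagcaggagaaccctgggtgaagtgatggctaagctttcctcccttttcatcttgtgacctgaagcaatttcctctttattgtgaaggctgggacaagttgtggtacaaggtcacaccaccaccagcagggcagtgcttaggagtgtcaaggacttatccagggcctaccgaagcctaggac
The Kcng4 window held 1 match and the Kcnf1 window 0. RefSeq promoter entries were found for 36 of the 54 tested symbols, 52 entries in all, and CAGACA occurred in 10 of them (19.2%), where 17.1% of all 32851 mouse entries held it. The palindromic GC-rich SMAD motif GGCGCC occurred in 11 of the 52 (21.2%), against 9.59% of all entries, and the cAMP-element core TGACGTC in 0, against 2.78%, both strands searched. Neither window above held GGCGCC or TGACGTC. The entries were not matched for GC content and some genes had several, so these shares do not test for enrichment. A match describes the letters only.

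Kcng4 in control cells had 2.47, 1.54 and 2.19 CPM with activin B, against 0.192, 0.244 and 0.254 CPM with DOX alone. Kcng4 in ALK7 cells had 2.9, 2.50 and 2.40 CPM with activin B, against 0.276, 0.280 and 0.354 CPM with DOX alone. Kcng4 in ALK7-DN cells had 2.56, 2.14 and 2.06 CPM with activin B, against 0.278, 0.258 and 0.490 CPM with DOX alone. The gene was near the limit of detection without the ligand, with 4 to 14 reads per library in these 3 lines. Kcng4 in sh2 cells had 3.46, 2.61 and 2.49 CPM with activin B, against 0.189, 0.292 and 0.270 CPM with DOX alone. Kcng4 in sh1/2 cells had 2.86, 3.02 and 2.49 CPM with activin B, against 0.650, 0.902 and 0.748 CPM with DOX alone. All libraries with activin B were above all with DOX alone, and in sh1/2 cells the DOX libraries were higher than those of any other line. The log2 fold change was 3.14 ± 0.24 SE (adjusted p = 3.33e-10) in control, 3.08 ± 0.23 (adjusted p = 1.03e-10) in ALK7 and 2.71 ± 0.22 (adjusted p = 1.09e-09) in ALK7-DN cells. For Kcng4 in the hairpin lines it was 3.49 ± 0.24 (adjusted p = 3.07e-11) in sh2 and 1.85 ± 0.20 (adjusted p = 1.47e-07) in sh1/2 cells, and the calls held with each library left out.

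Kcnf1 in control cells had 5.96, 6.64 and 6.05 CPM with activin B, against 9.95, 11.3 and 11.8 CPM with DOX alone. Kcnf1 in ALK7 cells had 5.57, 5.65 and 6.24 CPM with activin B, against 11.6, 11.4 and 11.8 CPM with DOX alone. Kcnf1 in ALK7-DN cells had 5.32, 5.60 and 5.71 CPM with activin B, against 11.1, 10.1 and 11 CPM with DOX alone. The 3 lines on plasmid PB-33 lay between 5.32 and 6.64 CPM with activin B and between 9.95 and 11.8 CPM with DOX alone. Kcnf1 in sh2 cells had 2.38, 2.47 and 2.34 CPM with activin B, against 5.33, 6.80 and 5.30 CPM with DOX alone. Kcnf1 in sh1/2 cells had 4.84, 3.96 and 3.19 CPM with activin B, against 5.89, 6.88 and 6.95 CPM with DOX alone. Both hairpin lines lay below the other lines in both arms, and the libraries with activin B lay below those with DOX alone in every line. Its log2 fold change was -0.83 ± 0.11 SE (adjusted p = 3.57e-06) in control, -1.0 ± 0.11 (adjusted p = 1.42e-07) in ALK7 and -0.95 ± 0.11 (adjusted p = 4.85e-07) in ALK7-DN cells. For Kcnf1 in the hairpin lines it was -1.28 ± 0.12 (adjusted p = 1.47e-08) in sh2 and -0.71 ± 0.12 (adjusted p = 4.99e-05) in sh1/2 cells.

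Kcng3, another silent subunit (Kv6.3), was lower with activin B in 3 lines at levels of about 1 CPM or less. It had 0.203, 0.129 and 0.319 CPM with activin B, against 1.25, 1.01 and 1.14 CPM with DOX alone in control cells, with no overlap, and the change was -2.34 ± 0.35 (adjusted p = 1.47e-05) in control, -1.51 ± 0.41 (adjusted p = 0.00784) in ALK7 and -1.13 ± 0.37 (adjusted p = 0.0349) in ALK7-DN cells. The ALK7 call ended without DOX replicate 3 (adjusted p = 0.0562). The ALK7-DN call ended without DOX replicate 1 or 3, or activin B replicate 1, 2 or 3 (adjusted p 0.0588 to 0.188). The changes in sh2 and sh1/2 cells did not pass, at -1.03 ± 0.37 (adjusted p = 0.0511) and -0.71 ± 0.30 (adjusted p = 0.0648). The GC-corrected changes did, at -1.02 (adjusted p = 0.0452) in sh2 and -0.82 (adjusted p = 0.0496) in sh1/2 cells. The silent subunit Kcns3 (Kv9.3) was called in no line.

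Kcnb2, which encodes the Kv2.2 pore, had 4.53, 5.44 and 5.56 CPM with activin B, against 2.98, 3.13 and 2.62 CPM with DOX alone in control cells, with no overlap. Its log2 fold change was 0.83 ± 0.14 (adjusted p = 0.000122) in control and 0.69 ± 0.14 (adjusted p = 0.000576) in ALK7 cells. For Kcnb2 it was 0.43 ± 0.14 (adjusted p = 0.0403) in ALK7-DN and 0.85 ± 0.15 (adjusted p = 9.58e-05) in sh2 cells, and -0.01 ± 0.14 (adjusted p = 0.97) in sh1/2 cells, whose DOX libraries already stood at 4.76 to 7.0 CPM. The ALK7-DN call of Kcnb2 ended without DOX replicate 2 or 3, or activin B replicate 2 or 3 (adjusted p 0.0531 to 0.218). The further row with the Kcnb2 symbol, which may share reads with it and is uncertain, averaged 0.985 CPM and was called higher in the same 4 lines. The control call ended without DOX replicate 1, 2 or 3, or activin B replicate 1 or 2 (adjusted p 0.0532 to 0.197), the ALK7 call without DOX replicate 2 or 3, or activin B replicate 2 or 3 (adjusted p 0.0755 to 0.178), and the ALK7-DN call without DOX replicate 2, or activin B replicate 1 or 2 (adjusted p 0.0882 to 0.179). With the replicate block it did not pass in ALK7 (0.69, adjusted p = 0.0645) or ALK7-DN cells (0.81, adjusted p = 0.0740). DESeq2 called it in neither (adjusted p = 0.0706 and 0.0727). The control call was lost with RLE size factors (adjusted p = 0.051), with the block (0.67, adjusted p = 0.0936), in DESeq2 (adjusted p = 0.102) and without the 3 libraries apart in GC content (0.53, adjusted p = 0.182).

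**Figure D3:**
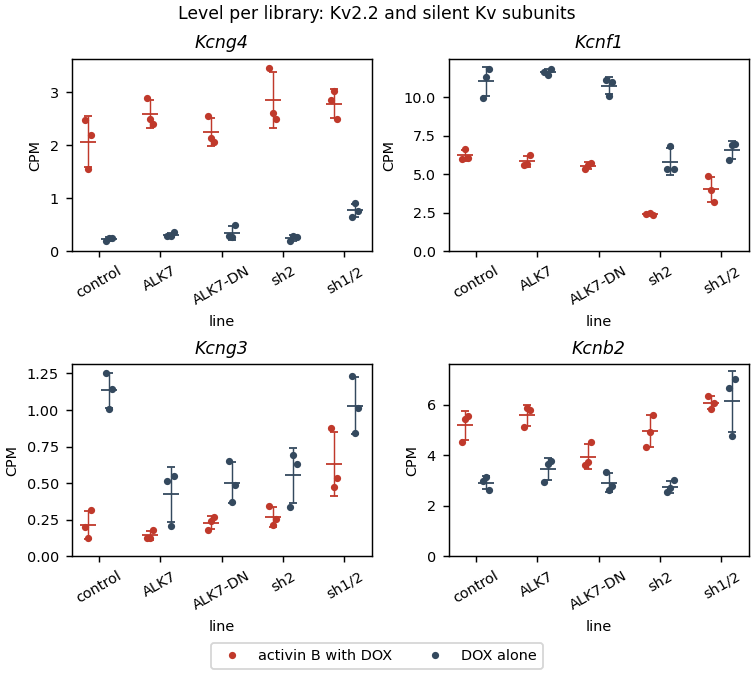
CPM per library (points), mean and SD (lines, n = 3 libraries) of the silent subunits Kcng4, Kcnf1 and Kcng3 and of Kcnb2 in the 5 lines, with activin B at the left of each pair and DOX alone at the right. Kcng4 averaged 2.07 CPM with activin B and 0.230 CPM with DOX alone in control cells, and Kcnf1 6.22 and 11 CPM.

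Several parts of the Kv4 complex, which carries a fast A-type current, changed in opposite directions. Its pore is joined by calcium-binding KChIP proteins (Kcnip genes), which alter the traffic and inactivation of the channel. Kcnip3 (chromosome 2, 127456498 to 127522094, minus strand) encodes KChIP3, also known as the calcium-sensitive transcriptional repressor DREAM. Kcnip3 in control cells had 87.7, 72.3 and 80.8 CPM with activin B, against 38.1, 38.1 and 39.4 CPM with DOX alone. Kcnip3 in ALK7 cells had 81.9, 85.7 and 86.6 CPM with activin B, against 36.8, 36.3 and 33.5 CPM with DOX alone. Kcnip3 in ALK7-DN cells had 89.4, 89.5 and 88.8 CPM with activin B, against 42.4, 41.8 and 43.3 CPM with DOX alone. The arms were far apart in these lines. Kcnip3 in sh2 cells had 89.2, 86.8 and 86.2 CPM with activin B, against 33.9, 36.3 and 34.1 CPM with DOX alone. Kcnip3 in sh1/2 cells had 49.5, 51.9 and 50.5 CPM with activin B, against 19.8, 21.8 and 20.1 CPM with DOX alone. The sh1/2 cells were lower than every other line in both arms, and in no line did the arms overlap. The log2 fold change was 1.06 ± 0.06 SE (adjusted p = 1.97e-13) in control, 1.25 ± 0.06 (adjusted p = 7.44e-15) in ALK7 and 1.07 ± 0.06 (adjusted p = 2.1e-13) in ALK7-DN cells. For Kcnip3 in the hairpin lines it was 1.33 ± 0.06 (adjusted p = 4.1e-15) in sh2 and 1.30 ± 0.06 (adjusted p = 2.17e-14) in sh1/2 cells.

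Kcnip1 (chromosome 11, 33629339 to 33993152, minus strand), which encodes KChIP1, had 29.4, 32.3 and 31.4 CPM with activin B, against 18, 18.3 and 17.6 CPM with DOX alone in control cells. It was higher in all 5 lines, with no overlap in any and log2 fold changes of 0.79 ± 0.08 in control, 0.50 ± 0.08 in ALK7 and 0.76 ± 0.08 in ALK7-DN cells. For Kcnip1 in the hairpin lines it was 0.66 ± 0.08 in sh2 and 0.42 ± 0.08 in sh1/2 cells. Adjusted p ranged from 2.06e-08 to 0.000197. Kcnip4 (chromosome 5, 48389502 to 49524907, minus strand), which encodes KChIP4, a member known to slow inactivation, went down. Kcnip4 in control cells had 11, 13.2 and 11.7 CPM with activin B, against 21.1, 23.6 and 20.3 CPM with DOX alone. Kcnip4 in ALK7 cells had 6.78, 6.54 and 7.19 CPM with activin B, against 22.0, 18.8 and 19.9 CPM with DOX alone. Kcnip4 in ALK7-DN cells had 13.9, 15.1 and 15.3 CPM with activin B, against 23.9, 24.5 and 26.6 CPM with DOX alone. The ALK7 line had the lowest levels with activin B. Kcnip4 in sh2 cells had 11.7, 12.3 and 12.3 CPM with activin B, against 24.0, 22.1 and 21.8 CPM with DOX alone. Kcnip4 in sh1/2 cells had 14, 12.2 and 11.4 CPM with activin B, against 25.5, 18.7 and 25.2 CPM with DOX alone. With activin B over DOX alone, the log2 fold change was -0.86 ± 0.10 SE (adjusted p = 4.39e-07) in control, -1.56 ± 0.10 (adjusted p = 1.68e-11) in ALK7 and -0.76 ± 0.10 (adjusted p = 2.95e-06) in ALK7-DN cells. For Kcnip4 in the hairpin lines it was -0.90 ± 0.10 (adjusted p = 2.43e-07) in sh2 and -0.88 ± 0.10 (adjusted p = 3.64e-07) in sh1/2 cells, with no overlap in any line. The calls of Kcnip1, Kcnip3 and Kcnip4 held with each library left out. Kcnip2, the KChIP of heart muscle, averaged 1.24 CPM and was called in no line.

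The Kv4.1 pore Kcnd1 (chromosome X, 7822289 to 7838280, plus strand) was lower with activin B in 4 lines. It had 44.7, 31.4 and 40.6 CPM with activin B, against 56.8, 50.8 and 52.3 CPM with DOX alone in control cells, with no overlap. Its log2 fold change was -0.45 ± 0.10 (adjusted p = 0.00175) in control, -0.43 ± 0.10 (adjusted p = 0.00223) in ALK7 and -0.36 ± 0.10 (adjusted p = 0.0138) in ALK7-DN cells. For Kcnd1 in the hairpin lines it was -0.34 ± 0.10 (adjusted p = 0.0171) in sh2 and -0.10 ± 0.10 (adjusted p = 0.436) in sh1/2 cells, where the groups overlapped. The GC-corrected sh1/2 value was -0.28 (adjusted p = 0.0035), lower as in the other 4 lines. The ALK7-DN call ended without DOX replicate 1, or activin B replicate 3 (adjusted p 0.0729 to 0.078). The sh2 call ended without DOX replicate 1, or activin B replicate 2 or 3 (adjusted p 0.0566 to 0.111), and the control call with only the control libraries in the fit (-0.45, adjusted p = 0.0722). Kcnd2 (Kv4.2) was called in no line. Outside the symbol rule, the transmembrane partners of Kv4 also differed: Dpp10 was higher in all 5 lines, with log2 fold changes of 0.25 in sh1/2 to 0.59 in sh2 cells, with adjusted p from 1.79e-05 to 0.0313. Dpp6 was lower in 4, at -0.47 in sh2 to -0.90 in ALK7 cells, but not past the test in sh1/2 cells (-0.10, adjusted p = 0.314). These belong to a list of 18 tested channel partners, of which 2 were higher and 3 to 5 lower in each line. Of all genes 16.1% in ALK7-DN to 36.6% in sh1/2 cells were called, and in sh1/2 cells 2 partners were higher and 4 lower.

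**Figure D4:**
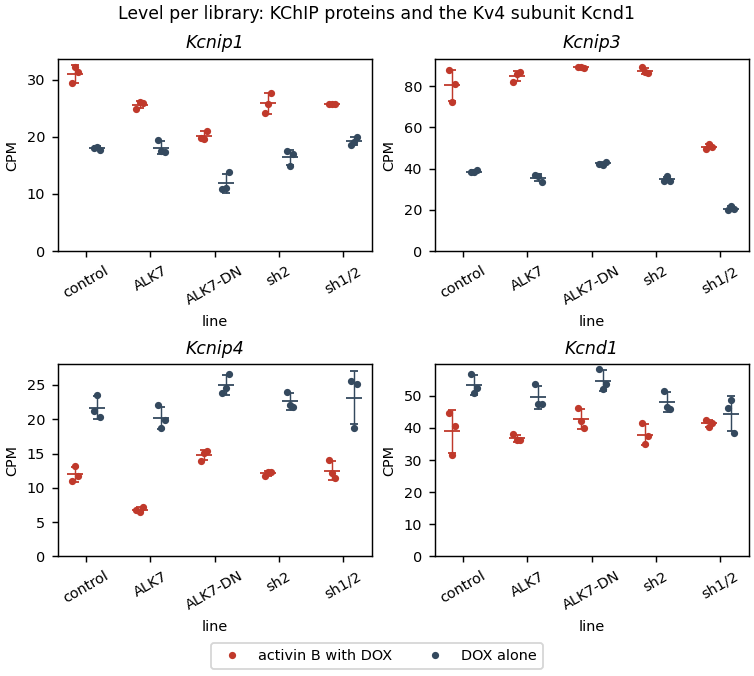
CPM per library (points), mean and SD (lines, n = 3 libraries) of the KChIP genes Kcnip1, Kcnip3 and Kcnip4 and of the pore Kcnd1 in the 5 lines, with activin B at the left of each pair and DOX alone at the right. Kcnip3 averaged 80.3 CPM with activin B and 38.5 CPM with DOX alone in control cells, Kcnip4 11.9 and 21.7 CPM, and Kcnd1 38.9 and 53.3 CPM.

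Among the other voltage-gated genes, the Kv3 pores Kcnc2 and Kcnc4 and the cytoplasmic β subunit Kcnab3 were lower with activin B in most lines. The Kv3 pore Kcnc1 was called higher in 2 lines, and KCNQ genes went both ways. Kcnc2 (Kv3.2, a pore for fast repolarisation) had 3.17, 3.38 and 2.83 CPM with activin B, against 5.96, 5.05 and 5.11 CPM with DOX alone in control cells. It was lower without overlap in all 5 lines, with log2 fold changes of -0.78 ± 0.15 in control, -0.86 ± 0.15 in ALK7 and -0.60 ± 0.15 in ALK7-DN cells. For Kcnc2 in the hairpin lines it was -0.90 ± 0.16 in sh2 and -0.96 ± 0.15 in sh1/2 cells, and adjusted p ranged from 5.03e-05 to 0.0054. Kcnc4 (Kv3.4) had 0.320, 0.343 and 0.354 CPM with activin B, against 1.64, 0.836 and 1.27 CPM with DOX alone in control cells, and was lower there, with a change of -1.85 ± 0.33 (adjusted p = 0.000154). It was also called in ALK7-DN (-1.25), sh2 (-1.24) and sh1/2 cells (-1.5), but not in ALK7 cells (-0.71 ± 0.28, adjusted p = 0.0691), and the sh2 call ended without DOX replicate 2 (adjusted p = 0.0784). The GC-corrected value in ALK7 cells passed (-0.93, adjusted p = 0.00626). The Kv3.1 pore Kcnc1 was slightly higher in ALK7 (0.26 ± 0.09, adjusted p = 0.0342) and sh2 cells (0.42 ± 0.09, adjusted p = 0.00106), and the ALK7 call ended without DOX replicate 2 or 3, or activin B replicate 1 or 3 (adjusted p 0.0803 to 0.159). Corrected for GC content, the ALK7 value was 0.11 (adjusted p = 0.51), and control cells passed (0.38, adjusted p = 0.0151).

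Kcnab3 (Kvβ3) had 10.6, 10.9 and 10.7 CPM with activin B, against 16.2, 16.7 and 14.9 CPM with DOX alone in control cells and was lower without overlap in every line, with log2 fold changes of -0.57 ± 0.07 in control, -0.69 ± 0.07 in ALK7 and -0.45 ± 0.07 in ALK7-DN cells. For Kcnab3 in the hairpin lines it was -0.55 ± 0.07 in sh2 and -0.33 ± 0.07 in sh1/2 cells, with adjusted p from 2.63e-08 to 0.000888. The far more abundant Kvβ2 gene Kcnab2 was lower in control cells alone, at -0.52 ± 0.14 (adjusted p = 0.00928), a call that ended without DOX replicate 1, or activin B replicate 2 (adjusted p 0.0622 to 0.0769). Corrected for GC content, Kcnab2 was lower in 4 lines, at -0.39 (adjusted p = 6.82e-06) in control, -0.32 (adjusted p = 7.8e-05) in ALK7, -0.28 (adjusted p = 0.000583) in ALK7-DN and -0.27 (adjusted p = 0.000709) in sh2 cells. In sh1/2 cells its sign turned with that correction, at 0.20 as deposited and -0.15 corrected, past the test in neither.

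Of the KCNQ pores, Kcnq1 (Kv7.1) was lower in all 5 lines but rested on few reads, 1 to 5 per library with activin B and 6 to 15 with DOX alone outside the sh1/2 line. Kcnq1 in control cells had 0.116, 0.0857 and 0.0354 CPM with activin B, against 0.385, 0.314 and 0.254 CPM with DOX alone. In sh1/2 cells, the line with the highest level, it had 0.422, 0.279 and 0.269 CPM with activin B, against 0.903, 1.12 and 0.588 CPM with DOX alone. The groups did not overlap in any line, and the log2 fold change was -1.90 ± 0.45 (adjusted p = 0.00532) in control, -1.35 ± 0.42 (adjusted p = 0.0345) in ALK7 and -1.51 ± 0.39 (adjusted p = 0.00966) in ALK7-DN cells. For Kcnq1 in the hairpin lines it was -2.09 ± 0.41 (adjusted p = 0.000512) in sh2 and -1.45 ± 0.30 (adjusted p = 0.000728) in sh1/2 cells. The ALK7 call ended without DOX replicate 1 or 3, or activin B replicate 1, 2 or 3 (adjusted p 0.0584 to 0.132) and in DESeq2 (adjusted p = 0.0888). The ALK7-DN call ended without DOX replicate 1, or activin B replicate 1 (adjusted p 0.0654 to 0.129) and in DESeq2 (adjusted p = 0.0561). Kcnq3 (Kv7.3), at 0.705 CPM on average, was called higher in ALK7 (0.93), ALK7-DN (1.21) and sh2 cells (1.21). The ALK7 call of Kcnq3 ended without DOX replicate 1 or 3, or activin B replicate 3 (adjusted p 0.054 to 0.0997). The ALK7-DN call ended without DOX replicate 1 or 3, or activin B replicate 1 (adjusted p 0.0649 to 0.0709), and the sh2 call without DOX replicate 1 or 2, or activin B replicate 3 (adjusted p 0.0819 to 0.141).

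Kcnma1 (chromosome 14, 23289431 to 24014491, minus strand), the pore of the large-conductance calcium-activated BK channel, was lower in every line. It had 3.58, 3.73 and 3.57 CPM with activin B, against 5.05, 5.33 and 5.03 CPM with DOX alone in control cells, and no line had overlapping groups. The log2 fold change was -0.50 ± 0.13 (adjusted p = 0.00558) in control, -0.63 ± 0.13 (adjusted p = 0.000475) in ALK7 and -0.88 ± 0.13 (adjusted p = 1.91e-05) in ALK7-DN cells. For Kcnma1 in the hairpin lines it was -0.59 ± 0.14 (adjusted p = 0.00286) in sh2 and -0.63 ± 0.13 (adjusted p = 0.000884) in sh1/2 cells, where the call ended without the 3 libraries apart in GC content (-0.40, adjusted p = 0.179). Its accessory β subunits were called in few lines: Kcnmb1, at 0.556 CPM on average, was higher in control (1.27 ± 0.29, adjusted p = 0.0113) and sh1/2 cells (0.70 ± 0.23, adjusted p = 0.0213). Kcnmb4 was lower in ALK7-DN cells (-0.73 ± 0.20, adjusted p = 0.0119) and Kcnmb2 was lower in sh1/2 cells (-0.41 ± 0.13, adjusted p = 0.019). The Kcnmb1 call in control cells ended without DOX replicate 1, or activin B replicate 2 (adjusted p 0.069 to 0.0944). The sh1/2 call ended without DOX replicate 2 or 3, or activin B replicate 1 (adjusted p 0.0613 to 0.126). The Kcnmb4 call ended without DOX replicate 1 (adjusted p = 0.0645), and the Kcnmb2 call without DOX replicate 1 or 3, or activin B replicate 2 or 3 (adjusted p 0.0587 to 0.149) and with the GC correction (-0.14, adjusted p = 0.362). Of the small-conductance channels, Kcnn1 (SK1) was called higher in sh1/2 cells (0.53 ± 0.18, adjusted p = 0.0231), but not without DOX replicate 1 or 3, or activin B replicate 2 (adjusted p 0.0749 to 0.192) or with the GC correction (0.24, adjusted p = 0.418). Kcnn2 (SK2) was called lower in sh2 cells (-1.58 ± 0.46, adjusted p = 0.0491), but not without DOX replicate 1 or 2, or activin B replicate 1, 2 or 3 (adjusted p 0.0502 to 0.31).

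Of the inward rectifiers, Kcnj6 was higher with activin B in all 5 lines and Kcnj2 in 4. Kcnj6 encodes GIRK2, a pore opened by G proteins, through which inhibitory receptors hyperpolarise cells. Kcnj6 in control cells had 3.26, 3.47 and 3.86 CPM with activin B, against 0.962, 1.11 and 1.73 CPM with DOX alone. It was higher without overlap in every line, with changes of 1.47 ± 0.18 (adjusted p = 1.27e-06) in control, 1.32 ± 0.18 (adjusted p = 3.17e-06) in ALK7 and 1.22 ± 0.20 (adjusted p = 5.5e-05) in ALK7-DN cells. For Kcnj6 in the hairpin lines it was 1.45 ± 0.20 (adjusted p = 5.01e-06) in sh2 and 0.67 ± 0.20 (adjusted p = 0.0124) in sh1/2 cells. The sh1/2 call ended without DOX replicate 3, or activin B replicate 3 (adjusted p 0.0541 to 0.0893) and without the 3 libraries apart in GC content (0.62, adjusted p = 0.244). Its possible partners Kcnj3 (GIRK1) and Kcnj9 (GIRK3), both under 1 CPM on average, were called in no line. Kcnj2 (Kir2.1, a strong inward rectifier) had 1.31, 1.46 and 1.66 CPM with activin B, against 0.481, 0.488 and 0.592 CPM with DOX alone in control cells. Its change was 1.5 ± 0.19 (adjusted p = 1.02e-06) in control and 1.18 ± 0.18 (adjusted p = 1.61e-05) in ALK7 cells. For Kcnj2 it was 1.37 ± 0.19 (adjusted p = 1.5e-05) in ALK7-DN and 0.86 ± 0.18 (adjusted p = 0.00388) in sh2 cells. Kcnj2 in sh1/2 cells had 2.37, 2.07 and 2.25 CPM with activin B, against 2.13, 1.68 and 1.76 CPM with DOX alone, overlapping groups at a level above all other lines, and a change of 0.26 ± 0.16 (adjusted p = 0.192). Corrected for GC content, it passed there as well (0.49, adjusted p = 0.0157). Kcnj4 (Kir2.3) was called in sh1/2 cells alone (1.11 ± 0.31, adjusted p = 0.00793), and not without DOX replicate 1 (adjusted p = 0.0721). Kcnj10 (Kir4.1) was called in control cells alone (0.29 ± 0.10, adjusted p = 0.0343), and not without DOX replicate 2 or 3, or activin B replicate 2 or 3 (adjusted p 0.0842 to 0.132).

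Among the K2P background channels, Kcnk2 (chromosome 1, 189207930 to 189402273, minus strand), which encodes the mechanically and lipid-gated TREK-1, was higher in all 5 lines. Kcnk2 in control cells had 4.91, 3.98 and 5.06 CPM with activin B, against 3.03, 2.61 and 2.2 CPM with DOX alone. Kcnk2 in sh1/2 cells, the line with the highest level, had 9.75, 9.99 and 10.2 CPM with activin B, against 5.60, 3.58 and 4.49 CPM with DOX alone. The groups did not overlap in any line, and the change was 0.84 ± 0.17 (adjusted p = 0.000696) in control, 0.55 ± 0.17 (adjusted p = 0.0152) in ALK7 and 0.78 ± 0.17 (adjusted p = 0.00138) in ALK7-DN cells. For Kcnk2 in the hairpin lines it was 0.73 ± 0.17 (adjusted p = 0.0028) in sh2 and 1.13 ± 0.16 (adjusted p = 9.49e-06) in sh1/2 cells. The ALK7 call ended without DOX replicate 1 or 2 (adjusted p 0.0517 to 0.088). Kcnk1 (TWIK-1) had 3.17, 3.13 and 3.04 CPM with activin B, against 1.68, 1.81 and 1.35 CPM with DOX alone in control cells and was higher by 0.94 ± 0.16 (adjusted p = 6.88e-05) there and 0.75 ± 0.15 (adjusted p = 0.000433) in ALK7 cells. For Kcnk1 it was 0.77 ± 0.16 (adjusted p = 0.00106) in ALK7-DN and 1.01 ± 0.17 (adjusted p = 6.7e-05) in sh2 cells, but not past the test in sh1/2 cells (0.36 ± 0.15, adjusted p = 0.0669).

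The acid-sensitive channel gene Kcnk3 (TASK-1) was called higher in control (0.48 ± 0.16, adjusted p = 0.0316) and ALK7 cells (0.61 ± 0.16, adjusted p = 0.00457). The control call ended without DOX replicate 1 or 2, or activin B replicate 1 (adjusted p 0.065 to 0.285). The replicate block also called Kcnk3 in ALK7-DN (0.44, adjusted p = 0.0246) and sh1/2 cells (0.33, adjusted p = 0.0419), against 0.44 ± 0.16 (adjusted p = 0.0614) and 0.33 ± 0.15 (adjusted p = 0.0913) without it. The GC-corrected fit called Kcnk3 in ALK7-DN cells (0.55, adjusted p = 0.015) and not in ALK7 cells (0.41, adjusted p = 0.0513), and the sh1/2 value had the other sign (-0.10, adjusted p = 0.712). Its relative Kcnk9 (TASK-3) was lower in control (-0.62 ± 0.19, adjusted p = 0.019) and ALK7-DN cells (-0.86 ± 0.19, adjusted p = 0.00184) and higher in sh1/2 cells (1.13 ± 0.21, adjusted p = 0.000282). Kcnk9 in control cells had 1.69, 1.16 and 1.24 CPM with activin B, against 2.07, 2.26 and 1.99 CPM with DOX alone. Kcnk9 in sh1/2 cells had 1.30, 1.17 and 1.18 CPM with activin B, against 0.578, 0.622 and 0.427 CPM with DOX alone, so the arms stood in the opposite order in these lines. The control call ended without DOX replicate 2, or activin B replicate 2 or 3 (adjusted p 0.0735 to 0.089). Kcnk6 (TWIK-2), at 0.408 CPM on average, was lower in control cells alone (-1.43 ± 0.39, adjusted p = 0.00892), and not without activin B replicate 2 (adjusted p = 0.0501).

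The TALK-1 gene Kcnk16 (chromosome 14, 20261376 to 20269199, minus strand) had 149.8, 91.0 and 132 CPM with activin B, against 126, 95.9 and 105 CPM with DOX alone in control cells, where the groups overlapped. The change was 0.19 ± 0.16 (adjusted p = 0.466) in control and 0.35 ± 0.16 (adjusted p = 0.115) in ALK7 cells. For Kcnk16 it was 0.33 ± 0.16 (adjusted p = 0.196) in ALK7-DN and 0.17 ± 0.16 (adjusted p = 0.525) in sh2 cells. The replicate block called it higher in ALK7 (0.35, adjusted p = 0.0223) and ALK7-DN cells (0.32, adjusted p = 0.0486). So did the GC correction (0.26 and 0.37), and it also called control cells (0.26, adjusted p = 0.0394). Kcnk16 in sh1/2 cells had 171, 186 and 185 CPM with activin B, against 88.6, 135 and 79.2 CPM with DOX alone, and passed at 0.84 ± 0.16 (adjusted p = 0.000347). Without the 3 libraries apart in GC content the sh1/2 value was 0.42 (adjusted p = 0.0714) and the control value 0.37 (adjusted p = 0.0202).

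The ERG and EAG pores were called in at most 2 lines each. Kcnh6 (chromosome 11, 106008124 to 106034549, plus strand), the most abundant of them, stood at 187 ± 37.5 CPM with activin B and 188 ± 18.2 CPM with DOX alone in control cells (mean ± SD, n = 3 libraries), with a change of -0.01 ± 0.12 (adjusted p = 0.979). In sh1/2 cells it was called at 0.41 ± 0.12 (adjusted p = 0.0133), but not without DOX replicate 1 or 3 (adjusted p 0.0882 to 0.0901), and with the GC correction the value was 0.08 (adjusted p = 0.213). It did not pass in ALK7-DN (-0.01 ± 0.12, adjusted p = 0.969), sh2 (0.08 ± 0.12, adjusted p = 0.718) or ALK7 cells (0.30 ± 0.12, adjusted p = 0.0774), and with the replicate block the ALK7 value passed (0.30, adjusted p = 0.0127). GC-corrected values passed in ALK7 (0.15, adjusted p = 0.0134) and sh2 cells (0.18, adjusted p = 0.00429). Kcnh2 (ERG1) was called in sh1/2 cells alone (0.60 ± 0.22, adjusted p = 0.0379), and not without DOX replicate 1 or 3, or activin B replicate 1, 2 or 3 (adjusted p 0.0536 to 0.221) or with the GC correction (0.13, adjusted p = 0.208). That correction called it lower in control cells (-0.23, adjusted p = 0.0219). Kcnh1 (EAG1) was lower in control (-0.40 ± 0.13, adjusted p = 0.0266) and ALK7-DN cells (-0.37 ± 0.13, adjusted p = 0.0449). The Kcnh1 call in control cells ended without DOX replicate 1 or 3, or activin B replicate 2 or 3 (adjusted p 0.062 to 0.125). The ALK7-DN call of Kcnh1 ended without DOX replicate 1, 2 or 3, or activin B replicate 1, 2 or 3 (adjusted p 0.0582 to 0.156). Kcnu1, whose Slo3 channel is known from sperm, was lower in ALK7 cells (-0.28 ± 0.10, adjusted p = 0.0358), a call that ended without DOX replicate 1, 2 or 3, or activin B replicate 1, 2 or 3 (adjusted p 0.0534 to 0.119).

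The next comparison asked whether the response to activin B differed between a line and the control line, for the 2 lines with all libraries in batch 1. Between ALK7 and control cells no row differed in edgeR, 7 rows had an unadjusted p under 0.05, and DESeq2 called 1. Of all genes tested 0.0256% were called, 0.0192% with a more positive and 0.0064% with a more negative response. Between sh1/2 and control cells 16 of 55 rows differed, 10 with a more positive and 6 with a more negative response in sh1/2 cells, where 17.7% of all genes were called, 8.49% and 9.22% in these directions. The largest differences were Kcnk9, at 1.13 in sh1/2 against -0.62 in control cells (difference 1.75 ± 0.28, adjusted p = 0.000753), and Kcng3, at -0.71 in sh1/2 against -2.34 in control cells (1.63 ± 0.46, adjusted p = 0.0316). Next were Kcng4, at 1.85 in sh1/2 against 3.14 in control cells (-1.30 ± 0.33, adjusted p = 0.0225), and Kcnj2, at 0.26 in sh1/2 against 1.5 in control cells (-1.23 ± 0.24, adjusted p = 0.00404). Kcnb2 also responded less in sh1/2 cells (-0.83 ± 0.20, adjusted p = 0.016), as did its further row (-1.18 ± 0.33, adjusted p = 0.0316), Kcnj6 (-0.80 ± 0.27, adjusted p = 0.0466) and Kcnip1 (-0.36 ± 0.11, adjusted p = 0.0353). More positive differences were those of Kcnh3 (1.19 ± 0.36, adjusted p = 0.037), Kcnj11 (1.07 ± 0.37, adjusted p = 0.048), Kcnh2 (1.02 ± 0.31, adjusted p = 0.0369) and Kcnn1 (0.79 ± 0.24, adjusted p = 0.0373). Smaller ones were those of Kcnab2 (0.73 ± 0.20, adjusted p = 0.0295), Kcnk16 (0.65 ± 0.23, adjusted p = 0.0491), Abcc8 (0.55 ± 0.15, adjusted p = 0.029) and Kcnip3 (0.24 ± 0.08, adjusted p = 0.0441).

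Part of these differences changed with the GC correction. Across all genes with a known GC content, the difference in response correlated with GC content at 0.49, and the response in sh1/2 cells itself at 0.43. With the GC correction 8 rows were called, 2 with a more positive and 6 with a more negative response. Of the 16 rows 5 kept the call: Kcnk9 (1.82), Kcng4 (-1.71), Kcnj2 (-0.96), the further Kcnb2 row (-1.18) and Kcnh2, the last at 0.36 (adjusted p = 0.042), against 1.02 in the deposited counts. The further Kcnb2 row had no known GC content, so the correction left its counts unchanged and its call does not test GC content. The Kcnb2 row with a known GC content lost its call (-0.48, adjusted p = 0.071). The values of Kcng3 (1.51, adjusted p = 0.0567) and Kcnj6 (-0.74, adjusted p = 0.0971) stayed near those in the deposited counts although their calls were lost. Abcc8 then differed by 0.09 (adjusted p = 0.488) and Kcnip3 by -0.05 (adjusted p = 0.838). Without the 3 libraries apart in GC content Kcng4 alone of the 16 passed (-1.68, adjusted p = 0.0486), while Kcnk9 stood at 1.48 (adjusted p = 0.0765) and Kcnj2 at -1.09 (adjusted p = 0.179). The count was 3 without control DOX replicate 1, control activin B replicate 2, sh1/2 DOX replicate 1 or sh1/2 DOX replicate 3. It was 7 without control DOX replicate 3, 6 and 4 without sh1/2 activin B replicates 2 and 3, and 26 without sh1/2 DOX replicate 2. Kcnk9 and Kcnj2 kept their calls with each library left out, and Kcng4 with each except control DOX replicate 1 (adjusted p = 0.0765). With only the 4 groups compared in the fit 1 row was called, which was Kcnk9 (1.75, adjusted p = 0.0236).

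**Figure D5:**
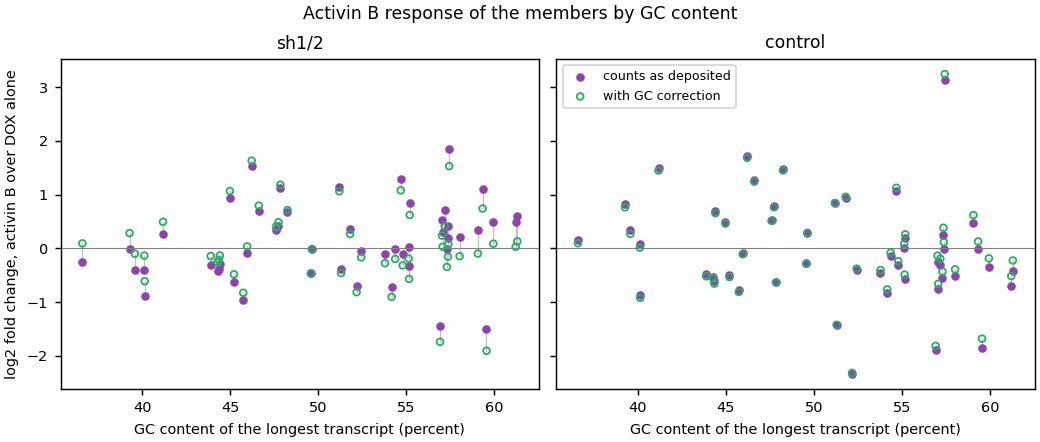
Log2 fold change of activin B with DOX over DOX alone for tested rows with a known GC content, against the GC content of the longest transcript, in sh1/2 (left) and control cells (right). Filled points are from the counts as deposited and open points from counts corrected for GC content; in sh1/2 cells Abcc8 stood at -0.01 as deposited and -0.35 corrected.

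The lines were then compared with the control line in arms that lie in 1 batch, which leaves out ALK7-DN cells with activin B and sh2 cells with DOX alone. Few rows differed in the lines labelled ALK7 and ALK7-DN. With DOX alone, ALK7 cells differed in 2 rows, both lower (1.98% of all genes were called, 0.953% lower), Kcng3 (-1.42 ± 0.32, adjusted p = 0.0163) and Kcnab3 (-0.31 ± 0.07, adjusted p = 0.0139). The count was 0 without control DOX replicate 1 and 1 without control DOX replicate 2 or 3 or ALK7 DOX replicate 2 or 3, and 0 with only these groups fitted. ALK7-DN cells with DOX alone differed in 3 rows, 1 higher and 2 lower (0.966% of all genes, 0.378% higher and 0.589% lower). Kcnip1 stood at 11.9 ± 1.67 CPM in ALK7-DN cells and 18 ± 0.338 CPM in control cells, without overlap (-0.60 ± 0.08, adjusted p = 0.000133), a call that held with each library left out. The higher Kcnc1 (0.38 ± 0.09, adjusted p = 0.0478) did not, and its call ended without control DOX replicate 1, 2 or 3, or ALK7-DN DOX replicate 1 or 2 (adjusted p 0.0587 to 0.272). The count was 1 without control DOX replicate 2 or ALK7-DN DOX replicate 2, and 0 with only these groups fitted. With activin B, ALK7 cells differed from control cells in 4 rows, 1 higher and 3 lower (4.53% of all genes, 2.09% higher and 2.44% lower). Kcnip4 had 6.78, 6.54 and 7.19 CPM in ALK7 cells, against 11, 13.2 and 11.7 CPM in control cells (-0.80 ± 0.11, adjusted p = 3.42e-05), and Kcnab3 was also lower (-0.42 ± 0.07, adjusted p = 0.000471). Kcnip1 was lower (-0.27 ± 0.08, adjusted p = 0.0363) and Kcnc4 higher (1.45 ± 0.33, adjusted p = 0.0105). The Kcnip1 call ended without control activin B replicate 2 or 3, or ALK7 activin B replicate 1, 2 or 3 (adjusted p 0.0729 to 0.16), and the Kcnc4 call without ALK7 activin B replicate 2 (adjusted p = 0.0614). The count was 2 without ALK7 activin B replicate 2 and 1, Kcnip4, with only these groups fitted.

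In sh2 cells with activin B, the arm that shares a batch with control cells, 16 rows differed, 15 of them lower (9.23% of all genes were called, 3.06% higher and 6.18% lower). Kcnf1 had 2.38, 2.47 and 2.34 CPM in sh2 cells, against 5.96, 6.64 and 6.05 CPM in control cells (-1.37 ± 0.12, adjusted p = 2.87e-08). Kcnma1 had 1.95, 1.80 and 1.68 CPM in sh2 cells, against 3.58, 3.73 and 3.57 CPM in control cells (-1.0 ± 0.14, adjusted p = 1.5e-05), and Kcnk9 had 0.260, 0.494 and 0.512 CPM in sh2 cells, against 1.69, 1.16 and 1.24 CPM in control cells (-1.67 ± 0.22, adjusted p = 9.16e-06). All 3 channel genes were lower in sh2 cells without overlap. Kcnh1 averaged 1.87 ± 0.380 CPM in sh2 cells and 3.99 ± 0.518 CPM in control cells (-1.09 ± 0.14, adjusted p = 4.6e-06) and Kcnj6 2.09 ± 0.361 CPM in sh2 cells and 3.53 ± 0.305 CPM in control cells (-0.75 ± 0.18, adjusted p = 0.00587). The higher row was Kcnc1, at 15.5 ± 1.89 CPM in sh2 cells and 10.2 ± 0.576 CPM in control cells (0.61 ± 0.09, adjusted p = 5.01e-05). Kcnn2, under 1 CPM on average, was lower too (-2.78 ± 0.39, adjusted p = 2.78e-05). Lower too were Kcns3 (-1.58), Abcc9 (-0.76), Kcnc2 (-0.69), Kcnk1 (-0.55), Kcnj10 (-0.42), Kcnmb2 (-0.40), Kcnab3 (-0.31) and Kcnip1 (-0.26). Of the calls named, 5 ended when single libraries were left out. The call of Kcns3 ended without control activin B replicate 2, or sh2 activin B replicate 1 (adjusted p 0.0566 to 0.116). The call of Abcc9 ended without control activin B replicate 2 or 3, or sh2 activin B replicate 1 or 3 (adjusted p 0.0554 to 0.135). That of Kcnk1 ended without control activin B replicate 1 or 2, or sh2 activin B replicate 1 or 2 (adjusted p 0.0537 to 0.0946). The call of Kcnmb2 ended without control activin B replicate 2 or 3, or sh2 activin B replicate 1, 2 or 3 (adjusted p 0.0502 to 0.171). That of Kcnip1 ended without control activin B replicate 2 or 3, or sh2 activin B replicate 1 or 2 (adjusted p 0.0844 to 0.16). With only these groups fitted 6 rows were called.

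The sh1/2 line differed most from the control line. With DOX alone 31 rows were called, 12 higher and 19 lower, where 38% of all genes were called, 19.4% higher and 18.6% lower. With the GC correction 16 rows were higher and 18 lower, and the calls of Kcnab3 (-0.17, adjusted p = 0.131), Abcc8 (-0.09, adjusted p = 0.162) and Kcnd1 (-0.14, adjusted p = 0.109), all lower as deposited, ended. Higher in sh1/2 cells were Kcnj2, at 1.86 ± 0.241 CPM in sh1/2 cells and 0.520 ± 0.0620 CPM in control cells (1.83 ± 0.18, adjusted p = 3.53e-08), and Kcng4, at 0.767 ± 0.127 CPM in sh1/2 cells and 0.230 ± 0.0329 CPM in control cells (1.72 ± 0.27, adjusted p = 2.17e-05). So was Kcnb2, at 6.14 ± 1.21 CPM in sh1/2 cells and 2.91 ± 0.265 CPM in control cells (1.07 ± 0.14, adjusted p = 3.03e-06). The BK accessory gene Kcnmb4 had 3.87, 4.42 and 4.01 CPM in sh1/2 cells, against 1.35, 1.39 and 1.39 CPM in control cells (1.57 ± 0.20, adjusted p = 1.03e-06). Lower were Kcnk9, at 0.543 ± 0.102 CPM in sh1/2 cells and 2.11 ± 0.143 CPM in control cells (-1.92 ± 0.21, adjusted p = 1.06e-07), and Kcnn1, at 1.29 ± 0.444 CPM in sh1/2 cells and 2.82 ± 0.409 CPM in control cells (-1.09 ± 0.18, adjusted p = 3.17e-05). Kcnip3 had 19.8, 21.8 and 20.1 CPM in sh1/2 cells, against 38.1, 38.1 and 39.4 CPM in control cells (-0.90 ± 0.06, adjusted p = 1.36e-11). None of these 7 calls was lost when a library, or the 3 libraries apart in GC content, were left out. Further higher rows were Kcnj3, Kcnq1, Kcnd2, Kcnmb1, the other Kcnb2 row, Kcnk2, Kcnk1 and Kcnc1 (0.47 to 1.63), and further lower rows included Kcnh4, Kcnh1, Kcnh2, Kcnmb2, Kcnj11, Kcnf1, Kcnc2, Kcnma1, Kcnh6, Kcnab2, Kcnab3, Abcc8, Kcnu1, Kcnd1 and Kcnj10 (-0.94 to -0.25). Of the further calls named, 8 ended when single libraries were left out. The call of Kcnh4 ended without control DOX replicate 1, or sh1/2 DOX replicate 1 or 3 (adjusted p 0.0693 to 0.0828). That of Kcnh2 ended without sh1/2 DOX replicate 3 (adjusted p = 0.0539). The call of Kcnj11 ended without control DOX replicate 1 or 3, or sh1/2 DOX replicate 1 or 3 (adjusted p 0.0528 to 0.144). That of Kcnab2 ended without control DOX replicate 1, or sh1/2 DOX replicate 1 or 3 (adjusted p 0.135 to 0.169). The call of Abcc8 ended without control DOX replicate 1, or sh1/2 DOX replicate 1 or 3 (adjusted p 0.0785 to 0.097). That of Kcnu1 ended without control DOX replicate 2 or 3, or sh1/2 DOX replicate 2 or 3 (adjusted p 0.0556 to 0.129). The call of Kcnd1 ended without control DOX replicate 1 or 3, or sh1/2 DOX replicate 1 or 3 (adjusted p 0.0634 to 0.26). That of Kcnj10 ended without control DOX replicate 1 or 3, or sh1/2 DOX replicate 1 or 2 (adjusted p 0.0789 to 0.184). Without the 3 libraries apart in GC content 17 rows were called, and the calls lost included those of Kcnk2, Kcnj3, Kcnd2, Kcnmb1, Kcnh6 and the other Kcnb2 row beside these 8 (adjusted p 0.0555 to 0.864). With only these groups fitted 18 rows were called.

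With activin B, sh1/2 cells differed from control cells in 25 rows, 14 higher and 11 lower, where 35.2% of all genes were called, 16.9% higher and 18.3% lower. Kcnmb4 had 3.57, 3.02 and 2.62 CPM in sh1/2 cells, against 1.16, 0.899 and 0.779 CPM in control cells (1.68 ± 0.20, adjusted p = 4.78e-07). Kcnk2 averaged 9.99 ± 0.238 CPM in sh1/2 cells and 4.65 ± 0.584 CPM in control cells (1.10 ± 0.16, adjusted p = 7.84e-06). Lower were Kcnj6, at 1.4 ± 0.270 CPM in sh1/2 cells and 3.53 ± 0.305 CPM in control cells (-1.34 ± 0.18, adjusted p = 2.48e-06), and the BK accessory gene Kcnmb2, at 4.31 ± 0.300 CPM in sh1/2 cells and 10.4 ± 0.858 CPM in control cells (-1.26 ± 0.13, adjusted p = 3.04e-08). Lower too were the ERG3 pore Kcnh7, at 4.75 ± 0.592 CPM in sh1/2 cells and 10.4 ± 1.47 CPM in control cells (-1.12 ± 0.19, adjusted p = 6.61e-05), and Kcnc2, at 1.86 ± 0.338 CPM in sh1/2 cells and 3.13 ± 0.279 CPM in control cells (-0.75 ± 0.15, adjusted p = 0.000532). Under 1 CPM on average, both GIRK partners Kcnj3 (1.81 ± 0.44, adjusted p = 0.0023) and Kcnj9 (1.64 ± 0.31, adjusted p = 0.000214), the Kv4.2 pore Kcnd2 (1.69 ± 0.39, adjusted p = 0.00145), Kcnq1 (1.94 ± 0.43, adjusted p = 0.00134) and Kcng3 (1.49 ± 0.36, adjusted p = 0.00222) were higher in sh1/2 cells. Among the remaining higher rows were Kcnk6, Kcnmb1, Kcnj2, Kcnk16 and Kcnc1 (0.42 to 1.12), and the remaining lower ones Kcnip3, Kcnf1, Kcnma1, Kcnh1, Kcnj10, Kcnu1 and Kcnip1 (-0.67 to -0.27). The call of Kcnu1 ended without control activin B replicate 2 or 3, or sh1/2 activin B replicate 1, 2 or 3 (adjusted p 0.0522 to 0.181). The call of Kcnk16 ended without control activin B replicate 2 (adjusted p = 0.0918). The call of Kcnk6 ended without control activin B replicate 1 or 2, or sh1/2 activin B replicate 2 (adjusted p 0.0762 to 0.134). Without control activin B replicate 2 together with the sh1/2 DOX libraries, the calls of Kcnk6 (adjusted p = 0.134) and Kcnu1 (adjusted p = 0.165) ended.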

How the data were processed

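RNA from the 30 libraries was extracted with Trizol and made into libraries with a TruSeq stranded mRNA kit, per the labels' protocols. The submitters' processing notes name bcl2fastq 2.17, cutadapt 1.4.2, HISAT2, featureCounts 1.4.4, edgeR and the mm10 build. The authors deposited raw read counts per gene, identical in 30 columns of 1 table and in the single files, and a table of log2 normalized expression that was not used here. From the counts, genes kept by filterByExpr (15627) were tested with edgeR 4.0.16 (R 4.3.3) by the quasi-likelihood F test with TMM library sizes, 10 group means and Benjamini-Hochberg adjustment over all genes tested, at a threshold of 0.05 in 13 comparisons. The standard error (SE) of a log2 fold change was derived from its F statistic. CPM used TMM-scaled library sizes. With 18904884 to 34740789 counts a library, 1 count is about 0.03 to 0.05 CPM.

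Alternatives were RLE size factors, no low-count filter, only the groups compared in the fit, the replicate number as a block, a loess correction (span 0.5) for GC content, both together, DESeq2 1.42.0, each library left out and the 3 libraries apart in GC content left out. Deviations of same-numbered libraries of a line correlated at 0.102 to 0.329 in ALK7, ALK7-DN and sh1/2 cells. They correlated at 0.079 to 0.309 in control and 0.093 to 0.231 in sh2 cells, and between lines at -0.161 to 0.316. The replicate number was taken as a pairing only in ALK7, ALK7-DN and sh1/2 cells, whose lowest correlations were higher. The ranges overlapped, so these values do not separate paired from unpaired lines. Gene positions, exon lengths and GC contents came from GENCODE M21 and promoters from RefSeq (GRCm38.p6). The fit was also run on simulated counts with no GC trend, batch or difference between lines. That run cannot show how these act on the calls. The genes, lists and alternatives were chosen with earlier results of these data known. Full values were given for beta cell channels (Kcnj11, Abcc8, Abcc9, Kcnk16, Kcnk3, Kcnh6, Kcnma1 and Kcnq1), for genes called in at least 3 activin B comparisons in 1 direction, for up to 6 others a comparison with the largest change at a mean of at least 1 CPM, and for genes that differed in an interaction. Of the tested genes 4 are not reported here, and they stay in the counts over all 55 rows.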

Additional observations from a re-analysis of the deposited data

Results flagged for a closer look

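In 16 rows the response to activin B differed between sh1/2 and control cells by the edgeR interaction test. The differences in log2 fold change were -0.83 for Kcnb2, -1.18 for the further Kcnb2 row, 0.24 for Kcnip3, 0.73 for Kcnab2, 1.02 for Kcnh2, 1.07 for Kcnj11, 0.55 for Abcc8 and 0.79 for Kcnn1. Those of the other 8 were -1.30 for Kcng4, 0.65 for Kcnk16, -0.36 for Kcnip1, -1.23 for Kcnj2, 1.75 for Kcnk9, 1.19 for Kcnh3, -0.80 for Kcnj6 and 1.63 for Kcng3. Adjusted p ranged from 0.000753 for Kcnk9 to 0.0491 for Kcnk16. With the GC correction the values of Kcng4 (-1.71, adjusted p = 0.00125), Kcnj2 (-0.96, adjusted p = 0.0284), Kcnk9 (1.82, adjusted p = 0.000378) and Kcnh2 (0.36, adjusted p = 0.042) still passed. The further Kcnb2 row also passed (-1.18, adjusted p = 0.0362), but its GC content is not known and its counts were not corrected. The part of GC content in its difference was therefore not tested. Without the 3 libraries apart in GC content the value of Kcng4 was -1.68. In sh1/2 cells with DOX alone Kcng4 and Kcnj2 were already higher than in control cells, and Kcnk9 was lower. The part of GC content in the differences of the remaining 11 rows was not tested beyond these refits.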

How the results depend on the processing

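Of the results named, RLE size factors kept 222 on the same side of the threshold and lost 4, DESeq2 kept 208 and lost 18, testing without the low-count filter kept 194 and lost 32, and the replicate block kept 215, lost 5 and gained 6. More were lost with only the groups compared in the fit, which kept 144, lost 78 and gained 4. The GC correction kept 192, lost 24 and gained 8. Over all fits with a single library left out, 1167 results were kept and 282 lost. The number was not taken as a pairing in control and sh2 cells or between lines. There the block ended Kcnq3 in sh2 cells (adjusted p = 0.0688), the further Kcnb2 row in control cells (adjusted p = 0.0936) and Kcnmb2 between sh2 and control cells with activin B (adjusted p = 0.0532). With only the groups compared in the fit, which leaves fewer libraries to estimate the spread, the rows called were 18 for activin B in control, 13 in sh1/2, 1 for the sh1/2 interaction, 0 for ALK7 and 0 for ALK7-DN against control with DOX alone, 18 for sh1/2 with DOX alone, and 1 for ALK7 and 6 for sh2 against control with activin B. Without the 3 libraries apart in GC content they were 13 for activin B in sh1/2, 1 for each interaction and 17 for sh1/2 with DOX alone. The ALK7 interaction called 1 row with the replicate block, 1 with the GC correction, 3 with both and 1 in DESeq2, and the sh1/2 interaction 8 without the low-count filter and 8 with the GC correction, of which 2 were higher and 6 lower, against 10 and 6 in the deposited counts. ALK7 against control with DOX alone gave 1 row without the filter and 4 with the GC correction and block, ALK7-DN 5 with the block, 6 with the GC correction and 9 with both, and ALK7 with activin B 8 with both. Of the named results past the test as deposited, that of Kcnip3 in the sh1/2 interaction turned sign (-0.0468, adjusted p = 0.838 with the GC correction, and -0.0465, adjusted p = 0.744 with both). Kcnh6 in control cells, not past it as deposited, turned and passed with both (0.113, adjusted p = 0.0153). The cause was not tested. The GC correction also ended Kcnab3 in ALK7 (adjusted p = 0.0937) and Kcnc1 in ALK7-DN cells (adjusted p = 0.198) with DOX alone, and Kcnc1 (adjusted p = 0.192) and Kcnu1 (adjusted p = 0.12) in sh1/2 cells with activin B, all against control.

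With each library left out in turn, the rows called ranged over 21 to 28 for activin B in control, 18 to 21 in ALK7, 20 to 22 in ALK7-DN, 19 to 23 in sh2 and 17 to 32 in sh1/2 cells. The ranges were 0 to 1 for the ALK7 and 3 to 26 for the sh1/2 interaction. With DOX alone they were 0 to 2 for ALK7, 1 to 3 for ALK7-DN and 25 to 35 for sh1/2 against control, and with activin B 2 to 4 for ALK7, 11 to 17 for sh2 and 20 to 27 for sh1/2. The 1 row of the ALK7 interaction appeared without control activin B replicate 1. The share of all genes called is not given for any of these alternatives, so their counts cannot be set against it.

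Limits are the 3 wells a group, the batch that coincides with activin B in ALK7-DN and sh2 cells, a PB-31 line without a hairpin not being analysed here, and the low counts of Kcng4, Kcnq1, Kcng3 and Abcc9.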

Other observations

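Genes beside the potassium channels that set the excitability of beta cells also moved with activin B. Slc2a2, the glucose transporter GLUT2, averaged 1.31 CPM with activin B and 3.80 CPM with DOX alone in control cells, and was lower in all 5 lines, with log2 fold changes of -2.19 in ALK7 to -1.13 in sh2 cells. Scn9a, a voltage-gated sodium channel pore, averaged 36.0 CPM with activin B and 21.9 CPM with DOX alone in control cells, and was higher in all 5 lines (0.34 in sh1/2 to 0.87 in sh2 cells). Atp1b1, the β subunit of the sodium pump, was lower in all 5 lines (-0.42 in ALK7 to -0.20 in ALK7-DN cells), as was the chloride channel gene Cftr (-0.93 in ALK7 to -0.78 in sh1/2 cells). In this list 30 of 36 genes were tested, of which 3 were higher and 8 lower in control cells, 5 and 6 in ALK7, 5 and 5 in ALK7-DN, 6 and 5 in sh2, and 8 and 8 in sh1/2 cells. Of all genes tested 20.3% were called in control, 25.3% in ALK7, 16.1% in ALK7-DN, 19.6% in sh2 and 36.6% in sh1/2 cells.

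Of the 18 tested genes whose proteins bind or traffic potassium channels, Snap25, a SNARE protein of insulin granule release, was lower in all 5 lines (-0.63 in sh1/2 to -0.45 in ALK7-DN cells). Ank2, a membrane scaffold, was higher in 4 lines (0.42 in ALK7 to 0.49 in sh2 cells) and not past the test in sh1/2 cells (0.09, adjusted p = 0.354).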
